A study of Mus musculus with 16 samples.

Results

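The difference that remained between treated Dnm2 mutant muscle and wild-type muscle was measured in 8 of the 16 RNA-seq libraries of the study. The libraries were picked by their labels, with earlier results of these data known. They were 4 from Dnm2SL/+ mice given ASO1 and 4 from wild-type (WT) mice given ASO Control. All were made from the tibialis anterior of males of the C57BL/6N strain at an age of 7 weeks. The Dnm2SL/+ genotype has 1 mutant and 1 normal copy of Dnm2, and the series title presents it as a mouse model of dominant centronuclear myopathy. ASO1 is an antisense oligonucleotide directed at Dnm2, and ASO Control is its control oligonucleotide. Each of the 8 libraries thus came from muscle of mice that had received an oligonucleotide, and no uninjected muscle was among them. The dose and the length of treatment are not given in the labels. The comparison crosses genotype and oligonucleotide at once, so a difference that belongs to the allele and one that belongs to ASO1 cannot be told apart by it. The other libraries, 6 of Dnm2SL/+ ASO Control and 2 of WT ASO1, are given as reference levels beside it. Below, treated mutants are Dnm2SL/+ ASO1 and untreated mutants are Dnm2SL/+ ASO Control, which had received the control oligonucleotide.

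Dynamin 2 is a large GTPase that wraps around the necks of membrane buds and cuts them, both in clathrin-mediated endocytosis and at other membranes. In muscle fibres, dominant mutations of its gene cause centronuclear myopathy, in which nuclei sit in the middle of the fibre and the triads, where the T-tubule meets the calcium store, are disturbed. The tibialis anterior is a mostly fast, glycolytic muscle, so slow and developmental isoforms of contractile genes are normally low in it.

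Depth was even, with 30334014 to 33667052 counts in the 8 libraries. No pair of the 16 libraries was a duplicate. The labels of WT ASO Control 4 were corrected by the submitters after deposition, and its Dnm2 level of 57.2 CPM (counts scaled to library size) lay with the other WT ASO Control libraries. WT ASO Control 2 held transcripts of liver: albumin (Alb) stood at 225 CPM in it and at 3.34 to 14.8 CPM in the other 7 libraries, and Apoa1 and Ttr were likewise highest in it, at 21.1 and 16.3 CPM. Myofibre genes (10 markers) summed to 154275 to 169842 CPM in WT ASO Control and 137680 to 151836 CPM in Dnm2SL/+ ASO1. The labels do not say whether a library is 1 mouse, so p-values measure the spread between these libraries. In bulk tissue, fewer cells of a type and less RNA per cell cannot be told apart.

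Promoters of 3 genes that frame the result are shown first. Tnni1 and Mybph code for proteins of the sarcomere that stayed above WT, and Myh4 codes for the main fast myosin heavy chain, which stayed below it. The windows run from 250 bases before to 50 bases after the annotated start (RefSeq, GRCm38.p6, all on the plus strand). Capitals mark CAGCTG, a form of the E-box, the sequence class that myogenic factors such as MyoD bind. The motif reads the same on both strands.
Tnni1 (chr1:135799171-135799470): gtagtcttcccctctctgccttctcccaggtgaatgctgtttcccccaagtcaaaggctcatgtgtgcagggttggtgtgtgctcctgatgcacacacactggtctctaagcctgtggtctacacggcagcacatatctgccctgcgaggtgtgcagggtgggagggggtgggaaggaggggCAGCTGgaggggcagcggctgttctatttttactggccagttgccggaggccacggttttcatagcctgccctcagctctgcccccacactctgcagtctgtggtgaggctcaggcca
Mybph (chr1:134193198-134193497): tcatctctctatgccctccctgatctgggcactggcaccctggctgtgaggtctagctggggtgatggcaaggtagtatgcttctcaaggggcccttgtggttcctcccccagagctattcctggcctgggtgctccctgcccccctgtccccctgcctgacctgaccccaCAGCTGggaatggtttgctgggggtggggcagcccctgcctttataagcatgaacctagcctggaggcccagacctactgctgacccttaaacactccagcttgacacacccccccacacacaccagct
Myh4 (chr11:67237562-67237861): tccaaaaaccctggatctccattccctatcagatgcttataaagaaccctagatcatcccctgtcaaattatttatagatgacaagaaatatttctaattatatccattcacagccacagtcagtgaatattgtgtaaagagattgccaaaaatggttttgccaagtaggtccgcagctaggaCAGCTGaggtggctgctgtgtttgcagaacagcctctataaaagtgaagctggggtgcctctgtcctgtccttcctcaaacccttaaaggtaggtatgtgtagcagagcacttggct
Each of these windows held 1 copy of CAGCTG. Tnni1 has 2 start sites in the annotation, and the first listed is printed. The motif occurred in 16.3% of all 32851 annotated promoters. It occurred in the first listed promoter of 48 of 190 genes called higher (25.3%), of 57 of 360 called lower (15.8%) and of 1748 of 11299 tested (15.5%). These shares describe letters in a window and were not tested.

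Treated mutants differed from WT ASO Control in 707 of 15649 genes tested (4.52%). Of these genes, 260 were higher in Dnm2SL/+ ASO1 (1.66% of genes tested) and 447 were lower (2.86%). A gene was called at an adjusted p under 0.05 in edgeR. The rises were fewer and larger: their median log2 fold change (log2FC) was 0.76 and 87 were past 1, whereas the median of the falls was -0.39 and 33 were past -1. Of the falls, 77.9% were under 1.5-fold. The 4 and 4 libraries did not overlap for 233 of the genes called higher and 406 of those called lower, and this held for 11.8% of all genes tested. In the same fit, untreated mutants differed from WT ASO Control in 5021 genes (32.1%, with 15.7% higher and 16.4% lower), and treated mutants differed from untreated mutants in 2351 (15%). Against the 2 WT ASO1 libraries, treated mutants differed in 549 genes (3.51%). These comparisons share libraries and differ in the number of libraries, so their counts are given side by side and not as parts of one another.

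**Figure D1:**
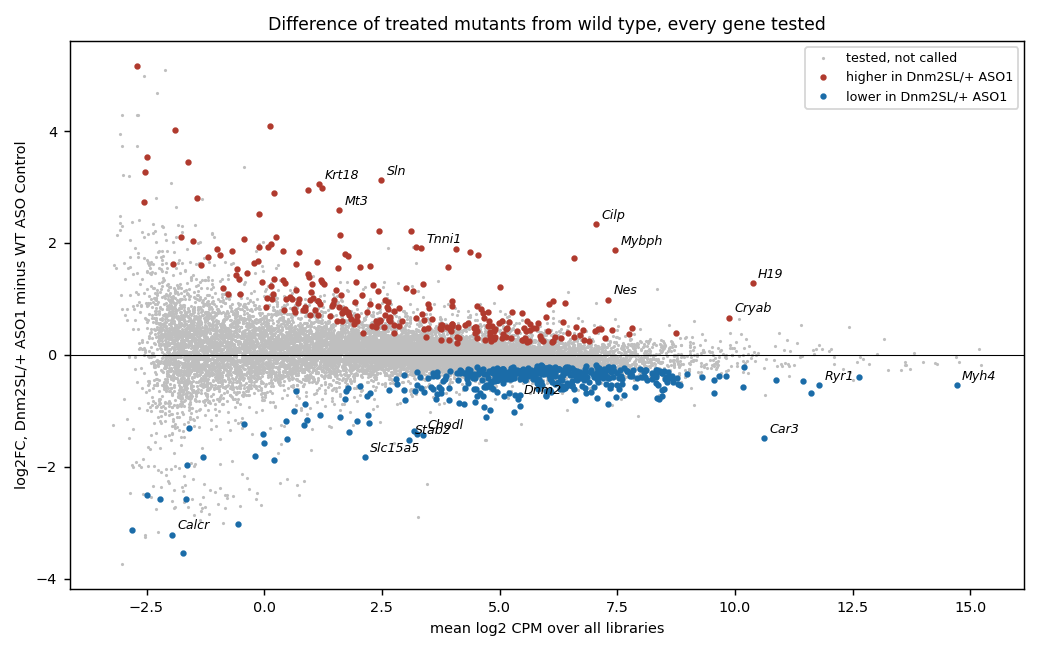
Difference between Dnm2SL/+ ASO1 (n = 4) and WT ASO Control (n = 4) for each of 15649 genes tested, with log2FC on the vertical axis against mean log2 CPM over all 16 libraries. Points in red are the 260 genes called higher and points in blue the 447 called lower; the red points reach further from 0, and most blue points lie between 0 and -1 among well-counted genes.

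The size of the count depended on single libraries. It was 225 without WT ASO Control 3, 241 without WT ASO Control 4, 194 without Dnm2SL/+ ASO1 2 and 189 without Dnm2SL/+ ASO1 4, but 787 without WT ASO Control 1, 652 without Dnm2SL/+ ASO1 1 and 975 without Dnm2SL/+ ASO1 3. Without WT ASO Control 2, the library with liver transcripts, 511 genes were called, of which 153 were higher. Between 94.7% and 99.5% of the genes called without WT ASO Control 3, WT ASO Control 4, Dnm2SL/+ ASO1 2 or Dnm2SL/+ ASO1 4 were among the 707. The split between rises and falls also depended on scaling: under upper-quartile scaling 309 genes were called higher and 331 lower. In a fit of the 8 libraries alone 215 genes were called, and 36 of the 69 genes chosen for naming lost their call.

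Dnm2 itself was below WT. The gene (ENSMUSG00000033335, GRCm38 chromosome 9, with Tmed1 overlapping its exons from the opposite strand) stood at 52.8, 55.7, 45.4 and 57.2 CPM in the 4 WT ASO Control libraries. It stood at 28.2, 35.2, 26.6 and 32.2 CPM in the 4 Dnm2SL/+ ASO1 libraries, or 57.9% of the WT mean. The groups did not overlap, and the difference was called (log2FC -0.79 ± 0.16, adjusted p = 0.014; exact two-sided permutation p = 0.0286, the lowest value within reach of 8 libraries). Untreated mutants ranged from 35.2 to 65.1 CPM (median 60.4), and the 2 WT ASO1 libraries stood at 23.0 and 24.99 CPM. The call held with each library left out in turn (adjusted p up to 0.048). Of the other 6 dynamin and mitofusin genes tested, including Dnm1, Dnm3, Mfn1, Mfn2 and Opa1, none was called by edgeR or DESeq2 and 0 had an unadjusted p under 0.05. Their log2FC ran from -0.35 for Dnm3 to 0.38 for Dnm1. No reading of allele was possible from counts per gene, so the mutant and normal transcripts of Dnm2 were not separated.

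Among genes that cause centronuclear myopathy or resemble it when mutated, 2 of 10 tested were called, both lower. The share was 20%, against 4.52% of all genes tested. The 2 were Dnm2, at which ASO1 is directed, and Ryr1, which codes for the calcium release channel of the triad. Mtm1, the myotubularin gene, and Bin1, whose protein bends membrane into T-tubules, had log2FC of -0.067 and 0.049, and neither passed the test (adjusted p = 0.64 and 0.75). Bin1 spanned 606 to 655 CPM in treated mutants and 599.8 to 622 CPM in WT ASO Control, while untreated mutants spanned 747 to 911 CPM.

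The largest rise by the rule for naming (called, well counted and not overlapping) was in a regulator of calcium reuptake. Sln codes for sarcolipin, the small protein that restrains the calcium pump of the sarcoplasmic reticulum. It stood at 0.961, 0.965, 0.929 and 0.770 CPM in WT ASO Control. In treated mutants it stood at 9.24, 14.0, 3.37 and 5.29 CPM. The lowest treated library lay above the highest WT library, and the fitted difference was 8.73-fold (log2FC 3.13 ± 0.64, adjusted p = 0.015). Untreated mutants ranged from 12.05 to 80.5 CPM (median 33.5). Against WT ASO1, at 0.425 and 1.01 CPM, the log2FC of treated mutants was 3.47 (adjusted p = 0.044). The other calcium handling genes with large positive differences, Casq2 (1.13), the slow calsequestrin, and Atp2a2 (0.55), the slow calcium pump, were not called (adjusted p = 0.074 and 0.07). Sln lost its call without WT ASO Control 3 or 4 or Dnm2SL/+ ASO1 2 (adjusted p up to 0.055). Sln was not called in limma voom with quality weights (log2FC 2.85, adjusted p = 0.20).

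A slow isoform and a thick-filament gene were among the large rises, for which the rule for naming required groups that do not overlap. Tnni1, the slow skeletal troponin I, stood at 2.43, 4.23, 2.68 and 3.16 CPM in WT ASO Control and 6.31, 8.64, 18.5 and 13.6 CPM in treated mutants. The groups did not overlap (log2FC 1.91 ± 0.40, adjusted p = 0.016), and untreated mutants ranged higher, from 31.8 to 60.1 CPM (median 35.5). Mybph, a myosin-binding protein of the thick filament, stood at 19.4, 128, 64.0 and 57.2 CPM in WT ASO Control. Treated mutants had 226, 249, 202 and 308 CPM, so that the lowest of them lay above the highest WT library (log2FC 1.87 ± 0.41, adjusted p = 0.020). WT ASO Control 1 was low for this gene and WT ASO Control 2 high. Untreated mutants ranged from 232 to 555 CPM (median 467). Tnni1 lost its call without WT ASO Control 3 or 4 or Dnm2SL/+ ASO1 4 (adjusted p up to 0.057). Mybph lost its call without WT ASO Control 3 or 4 or Dnm2SL/+ ASO1 2 or 4 (adjusted p up to 0.066).

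Of 15 slow fibre genes tested, 1 was called, Tnni1 (6.67%, against 4.52% of all genes tested). All 15 had a positive log2FC, with a median of 0.65 against 0.012 over all genes tested. The slow myosin heavy chain Myh7 had a log2FC of 1.93 (adjusted p = 0.18) and the slow light chain Myl2 1.92 (adjusted p = 0.23), and neither was called. The list summed to 5687 to 8079 CPM in WT ASO Control and to 8453 to 11357 CPM in treated mutants. DESeq2 called 5 of the 15 higher, and leaving out single libraries gave 0 to 3 calls in edgeR. Of 17 fast fibre genes, 2 were called lower and none higher (11.8%), with a median of -0.13.

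**Figure D2:**
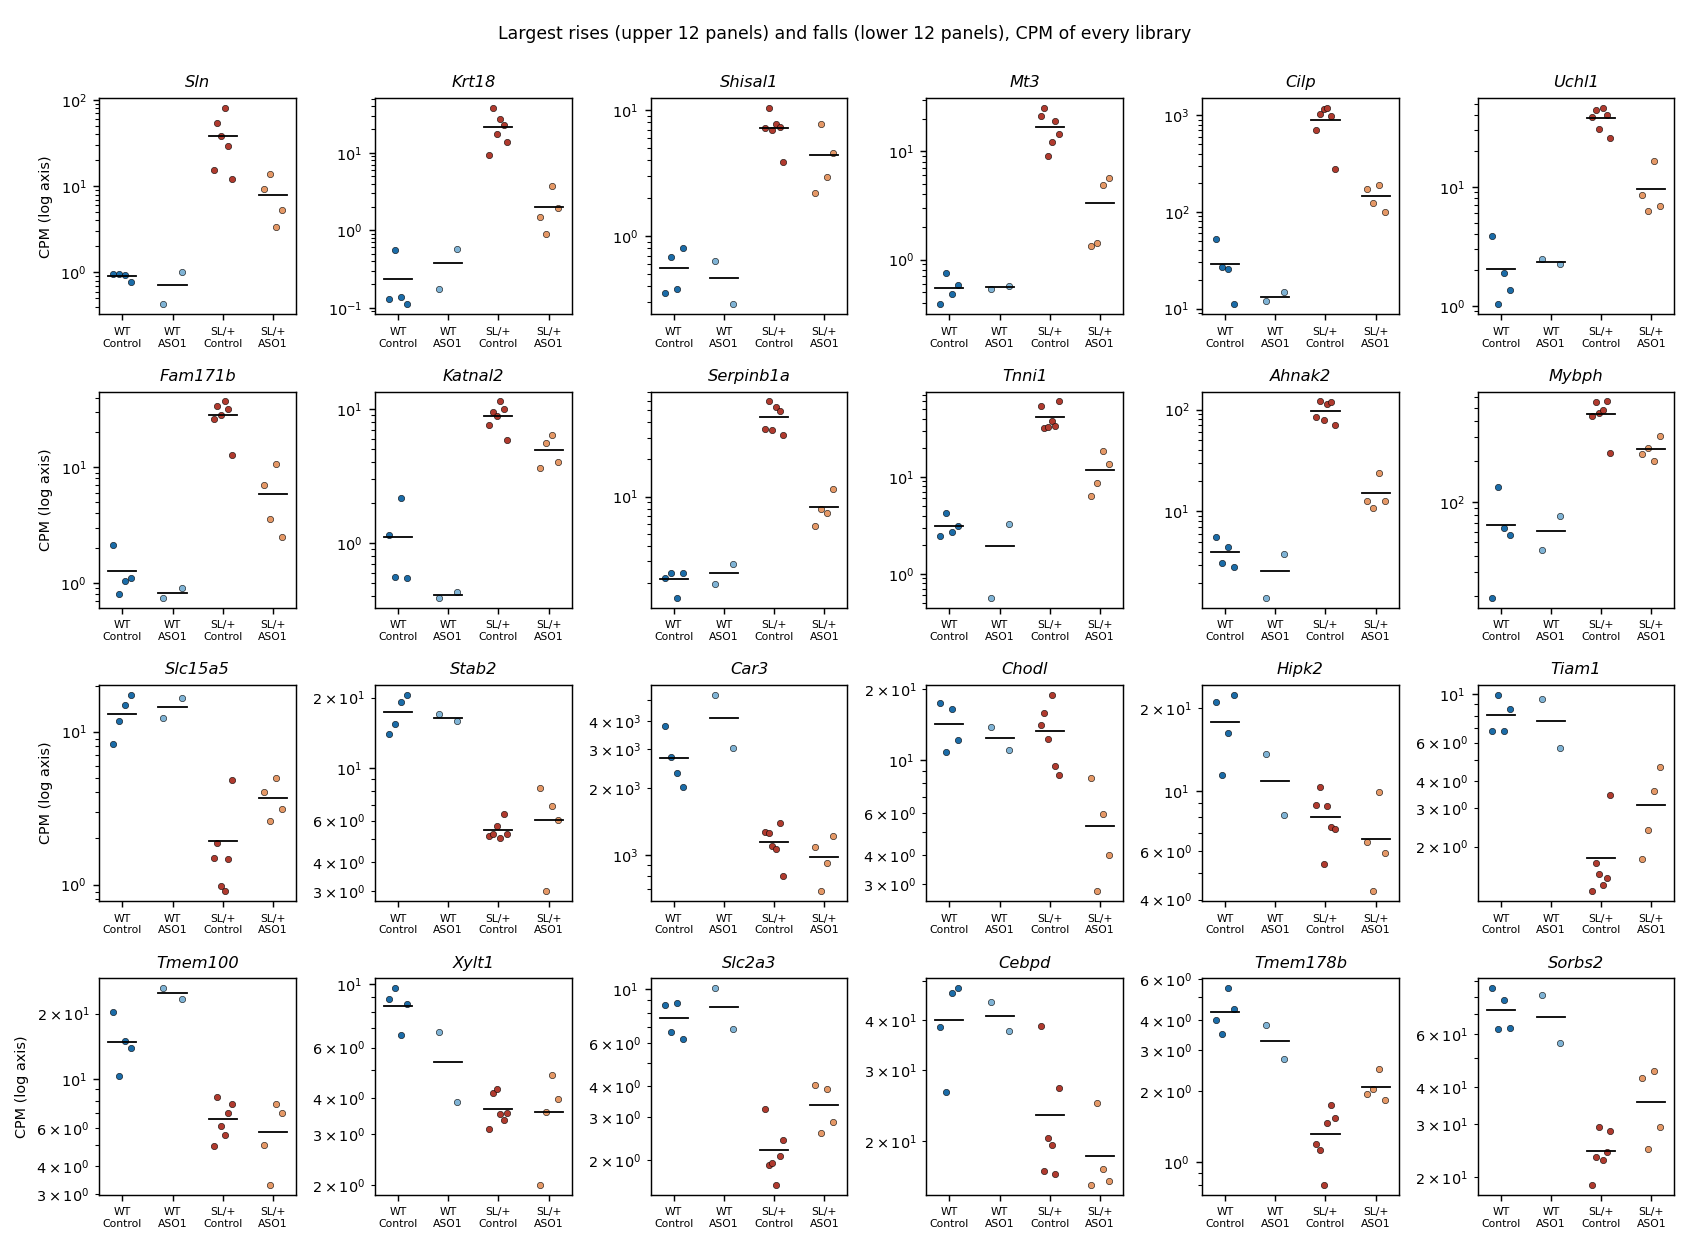
CPM on a log axis for the 12 largest rises (upper panels, Sln to Mybph) and the 12 largest falls (lower panels, Slc15a5 to Sorbs2), 1 point per library, with the group mean as a bar. Groups from left to right are WT ASO Control (n = 4), WT ASO1 (n = 2), Dnm2SL/+ ASO Control (n = 6) and Dnm2SL/+ ASO1 (n = 4). In each panel the points of Dnm2SL/+ ASO1 and WT ASO Control do not overlap, as the rule for choosing these genes required. In the panels of Chodl and Cebpd, untreated mutants overlap WT.

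Markers of immature or damaged fibres were called in 2 of 18 cases, both higher (11.1%, against 4.52% of all genes tested). Nes codes for nestin, an intermediate filament of developing and regenerating fibres and of the endplate region. It stood at 69.97, 76.8, 68.5 and 70.3 CPM in WT ASO Control and 123, 157, 156 and 129.5 CPM in treated mutants (log2FC 0.99 ± 0.15, adjusted p = 0.0049). All 4 treated libraries lay above the WT libraries and below the 247 to 454 CPM (median 409) of untreated mutants. H19, an imprinted long non-coding RNA of fetal muscle, stood at 694, 705, 574 and 942 CPM in WT ASO Control. It stood at 1538, 2388, 1093 and 2086 CPM in treated mutants (log2FC 1.29 ± 0.22, adjusted p = 0.0066), a range that overlapped the 1607 to 2695 CPM (median 2197) of untreated mutants. The exons of H19 hold Mir675 on the same strand. Nes and H19 kept their call with each of the 8 libraries left out in turn. The median log2FC of the list was 0.57, and its members Ncam1 (0.71, adjusted p = 0.063) and Myog (0.26, adjusted p = 0.74) were not called. Embryonic myosin Myh3 had a log2FC of 0.18 (adjusted p = 0.82).

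Filament and Z-disc genes were called in both directions. Krt18, a keratin of simple epithelia, was nearly silent in WT, at 0.128, 0.560, 0.138 and 0.110 CPM. In treated mutants it stood at 1.48, 0.891, 3.76 and 1.96 CPM, 8.29-fold higher (log2FC 3.05 ± 0.66, adjusted p = 0.020), and in untreated mutants it ranged from 9.48 to 37.8 CPM (median 20.1). Krt18 was higher in WT ASO Control 2 than in the other 3 WT ASO Control libraries. The treated group lay above that library too, as the rule for naming large rises required. Cryab, the small heat shock protein that protects desmin and titin, stood at 689.8, 539, 635 and 643 CPM in WT ASO Control and 1097, 999, 889 and 979 CPM in treated mutants (log2FC 0.66 ± 0.10, adjusted p = 0.0046). The groups were well apart, and Cryab was the only one of 18 heat shock genes called by edgeR (5.56%, against 4.52% of all genes tested). Its exons are overlapped on the other strand by Hspb2. Fhl2, an adaptor of the Z-disc and I-band, was low in every library, at 0.576, 0.716, 0.5851 and 0.293 CPM in WT ASO Control and 0.724, 1.95, 1.37 and 1.52 CPM in treated mutants (log2FC 1.34 ± 0.32, adjusted p = 0.029). Synm, the synemin that ties intermediate filaments to the membrane, was lower, at 579.6 to 837 CPM in treated mutants against 831 to 971 CPM (log2FC -0.45 ± 0.11, adjusted p = 0.037), with a narrow overlap. Cryab kept its call with each of the 8 libraries left out in turn. Krt18 lost its call without WT ASO Control 3 or 4 or Dnm2SL/+ ASO1 4 (adjusted p up to 0.066). Fhl2 lost its call without WT ASO Control 3 or 4 or Dnm2SL/+ ASO1 2 or 4 (adjusted p up to 0.095). Synm lost its call without WT ASO Control 1, 3 or 4 or Dnm2SL/+ ASO1 1, 2 or 4 (adjusted p up to 0.14). In limma voom with quality weights, Krt18 (log2FC 3.15, adjusted p = 0.19) and Fhl2 (1.33, adjusted p = 0.061) were not called.

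Genes of the extracellular matrix were called in 2 of 38 cases, 5.26% against the 4.52% of all genes tested, so that the share lay near the background. Cilp, a matrix protein first known from cartilage that binds growth factors, stood at 52.3, 27.1, 25.5 and 11.04 CPM in WT ASO Control. It stood at 174, 123, 190.4 and 99.0 CPM in treated mutants (log2FC 2.33 ± 0.44, adjusted p = 0.010). These values lay far below the 278 to 1186 CPM (median 1011) of untreated mutants. They lay above all WT libraries, as the rule for naming large rises required. Timp1, an inhibitor of metalloproteinases, stood at 2.02, 0.622, 0.275 and 0.477 CPM in WT ASO Control and 1.87, 1.25, 5.33 and 3.30 CPM in treated mutants (log2FC 1.77 ± 0.48, adjusted p = 0.049). The groups overlapped, since WT ASO Control 1 lay above the 2 lowest treated libraries. Untreated mutants ranged from 15.8 to 21.0 CPM (median 18.2). Cilp kept its call with each of the 8 libraries left out in turn. Timp1 lost its call without WT ASO Control 2, 3 or 4 or Dnm2SL/+ ASO1 3 or 4 (adjusted p up to 0.13). The median log2FC of the list was 0.19. The summed list varied within groups, from 2528 to 6156 CPM in WT ASO Control, where replicate 1 was highest, and from 3461 to 6073 CPM in treated mutants. Tendon markers varied in the same way, from 117 to 653 CPM with replicate 1 highest in WT ASO Control and from 52.5 to 462 CPM in treated mutants, and none of 11 was called by edgeR or DESeq2 or had an unadjusted p under 0.05. Their part in the matrix values was not tested.

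Membrane repair and cortical genes gave 2 calls of 19, both higher. Ahnak2, a giant scaffold protein beneath the plasma membrane, stood at 5.60, 3.11, 4.51 and 2.86 CPM in WT ASO Control and 12.6, 10.8, 23.8 and 12.8 CPM in treated mutants (log2FC 1.90 ± 0.31, adjusted p = 0.0061). It ranged from 69.8 to 120.2 CPM (median 98.5) in untreated mutants. Anxa4, a calcium-dependent membrane-binding annexin, stood at 17.0, 11.6, 13.05 and 12.4 CPM in WT ASO Control and 23.0, 16.3, 25.2 and 21.4 CPM in treated mutants (log2FC 0.67 ± 0.17, adjusted p = 0.039), with Dnm2SL/+ ASO1 2 inside the WT range. Parvb, which codes for an integrin-linked adaptor of adhesion sites, was the only call among 20 genes of the costamere. That share of 5% lay near the background. Parvb stood at 85.9 to 96.7 CPM in WT ASO Control and 113 to 123 CPM in treated mutants (log2FC 0.36 ± 0.06, adjusted p = 0.0067). Ahnak2 and Parvb kept their call with each of the 8 libraries left out in turn. Anxa4 lost its call without WT ASO Control 2, 3 or 4 or Dnm2SL/+ ASO1 1, 3 or 4 (adjusted p up to 0.11).

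Endocytosis genes, the process in which dynamin 2 acts, gave 6 calls of 37, 4 higher and 2 lower (16.2%, against 4.52% of all genes tested). By log2FC 18 were positive and 19 negative, with a median of -0.0055. Itsn1, a scaffold that recruits dynamin to coated pits, stood at 105, 122, 125 and 124 CPM in WT ASO Control and 87.7, 91.1, 99.7 and 92.1 CPM in treated mutants (log2FC -0.36 ± 0.06, adjusted p = 0.0078). The WT library nearest to the treated group was WT ASO Control 1. Eps15, an adaptor of the coated pit, had a log2FC of -0.29 ± 0.07, adjusted p = 0.026. Ehd2, an ATPase of the caveolar neck, stood at 106, 81.0, 104 and 79.5 CPM in WT ASO Control and 125, 119, 117 and 160.5 CPM in treated mutants (log2FC 0.49 ± 0.11, adjusted p = 0.026), and ranged from 79.2 to 99.3 CPM (median 91.5) in untreated mutants, which overlapped WT. Ehd1 (0.29, adjusted p = 0.041), Hip1r (0.32, adjusted p = 0.036) and Ap2s1 (0.30, adjusted p = 0.036) were the other 3 called higher. Itsn1 kept its call with each of the 8 libraries left out in turn. Eps15 lost its call without WT ASO Control 3 or 4 or Dnm2SL/+ ASO1 2 or 4 (adjusted p up to 0.085). Ehd2 lost its call without WT ASO Control 2 or 4 or Dnm2SL/+ ASO1 4 (adjusted p up to 0.083). With the trend on transcript length removed from each library, Itsn1 was no longer called (adjusted p = 0.13).

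The remaining large rises were in genes of varied function. Serpinb1a, an inhibitor of neutrophil proteases, stood at 2.21, 2.40, 1.51 and 2.42 CPM in WT ASO Control and 5.79, 8.02, 7.42 and 11.5 CPM in treated mutants (log2FC 1.93 ± 0.26, adjusted p = 0.0037). Uchl1, a deubiquitinase best known from neurons, stood at 3.87, 1.03, 1.89 and 1.36 CPM and 8.58, 6.23, 16.5 and 6.88 CPM (log2FC 2.22 ± 0.37, adjusted p = 0.0065). Shisal1, a membrane protein of the shisa family, stood at 0.352, 0.684, 0.379 and 0.807 CPM and 2.204, 7.82, 2.94 and 4.59 CPM (log2FC 2.98 ± 0.43, adjusted p = 0.0046). In each of these 3 genes the lowest treated library exceeded the highest WT library, as the rule for naming large rises required. Mt3, a metal-binding metallothionein, stood at 0.384, 0.747, 0.482 and 0.587 CPM in WT ASO Control and 1.35, 1.42, 4.84 and 5.70 CPM in treated mutants (log2FC 2.59 ± 0.51, adjusted p = 0.012). Katnal2, a katanin-like protein, had 1.15, 0.560, 2.17 and 0.550 CPM and 3.65, 5.58, 6.41 and 3.99 CPM (log2FC 2.14 ± 0.35, adjusted p = 0.0056). Fam171b had 2.11, 0.809, 1.03 and 1.101 CPM and 7.04, 3.56, 10.6 and 2.47 CPM (log2FC 2.22 ± 0.45, adjusted p = 0.015). In untreated mutants the mean levels of these genes were higher than in treated mutants, with log2FC against WT of 4.35 for Serpinb1a, 4.19 for Uchl1, 3.703 for Shisal1, 4.93 for Mt3, 2.99 for Katnal2 and 4.48 for Fam171b. Serpinb1a, Uchl1, Shisal1, Mt3 and Katnal2 kept their call with each of the 8 libraries left out in turn. Fam171b lost its call without WT ASO Control 3 or 4 (adjusted p up to 0.054). In limma voom with quality weights, Mt3 (log2FC 2.38, adjusted p = 0.14) and Fam171b (2.08, adjusted p = 0.093) were not called, and Mt3 was not called in the fit of the 8 libraries alone or with the replicate block.

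Gpx1, the cytosolic glutathione peroxidase, was the other call among 15 metallothionein and redox genes (13.3% called, against 4.52% of all genes tested). It stood at 36.2 to 45.5 CPM in WT ASO Control and 56.4 to 75.8 CPM in treated mutants (log2FC 0.67 ± 0.11, adjusted p = 0.0056). Dmpk, the kinase gene affected in myotonic dystrophy, and Prkar1a, a regulatory subunit of protein kinase A, were among the 6 most counted genes called higher. Dmpk stood at 330.5 to 368 CPM in WT ASO Control and 383 to 528 CPM in treated mutants (log2FC 0.40 ± 0.10, adjusted p = 0.030). Prkar1a stood at 144 to 198 and 213 to 302 CPM (log2FC 0.49 ± 0.12, adjusted p = 0.030). All 3 rises were below 2-fold. Gpx1 kept its call with each of the 8 libraries left out in turn. Dmpk and Prkar1a lost their call without WT ASO Control 1, 3 or 4 or Dnm2SL/+ ASO1 2 or 4 (adjusted p up to 0.098 and 0.098 respectively).

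Myh4, Pygm, Ryr1, Pde4dip and Cmya5 were among the 6 most counted genes called lower. Myh4, the type IIB fast myosin heavy chain and the gene with the highest level among those named, stood at 34408, 39419, 43427 and 40052 CPM in WT ASO Control. Treated mutants had 27609, 21292, 30281 and 28599 CPM, 68.5% of the WT mean (log2FC -0.55 ± 0.14, adjusted p = 0.036). Untreated mutants were lower again, at 16840.3 to 22901 CPM (median 18446). Mylk2, the kinase of the fast myosin light chain, stood at 1467 to 1717 CPM in WT ASO Control and 928 to 1258 CPM in treated mutants (log2FC -0.57 ± 0.11, adjusted p = 0.014). The other fast myosin heavy chain genes were not called, with log2FC of 0.036 for Myh1 (adjusted p = 0.91) and 0.39 for Myh2 (adjusted p = 0.72). Myh4 lost its call without WT ASO Control 2, 3 or 4 or Dnm2SL/+ ASO1 1, 2 or 4 (adjusted p up to 0.11). Mylk2 lost its call without Dnm2SL/+ ASO1 2 or 4 (adjusted p up to 0.059).

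Among 33 genes of the triad and calcium handling, 6 were called lower and 1, Sln, higher (21.2%, against 4.52% of all genes tested). By log2FC 20 were negative and 13 positive, with a median of -0.081. Ryr1 stood at 4582, 4289.6, 5058 and 4529 CPM in WT ASO Control and 3381, 2695, 3603 and 2969.6 CPM in treated mutants (log2FC -0.55 ± 0.11, adjusted p = 0.012). Scn4a, the voltage-gated sodium channel of the fibre membrane, stood at 589, 639, 749 and 633 CPM and 458, 412, 508 and 424 CPM (log2FC -0.53 ± 0.09, adjusted p = 0.0056). Camk2a, a calmodulin-dependent kinase, stood at 474, 530.01, 529 and 504 CPM and 341, 346, 408 and 366 CPM (log2FC -0.48 ± 0.10, adjusted p = 0.013). In all 3 the groups did not overlap. Jph1, the junctophilin that bridges the triad membranes (log2FC -0.41, adjusted p = 0.022), and Itpr1, the IP3 receptor (-0.46, adjusted p = 0.044), were also called lower. The voltage sensor Cacna1s (-0.12, adjusted p = 0.45) and the fast pump Atp2a1 (-0.19, adjusted p = 0.27) were not called. Untreated mutants stood at 2591 to 3360.1 CPM (median 3138) for Ryr1, which overlapped treated mutants, and at 328 to 378 CPM (median 349) for Scn4a, below every treated library. Ryr1 and Scn4a kept their call with each of the 8 libraries left out in turn. Camk2a lost its call without Dnm2SL/+ ASO1 2 (adjusted p up to 0.051).

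Calls of lower genes outside the lists included Cmya5 and Pde4dip, named for their level, and Sorbs2, named for its fold. Cmya5, the myospryn of the costamere and Z-disc region, had 2156 to 2606 CPM in WT ASO Control and 1469 to 1939.8 CPM in treated mutants (log2FC -0.45 ± 0.09, adjusted p = 0.016). Pde4dip, the myomegalin of the Golgi and sarcomere, had 3804 to 5052 and 2233 to 3398 CPM (log2FC -0.69 ± 0.14, adjusted p = 0.014), and its exons hold Mir7225. Sorbs2, an adaptor of the Z-disc and adhesion sites, had 85.2, 62.2, 78.0 and 62.9 CPM in WT ASO Control and 42.9, 24.9, 45.2 and 29.3 CPM in treated mutants (log2FC -1.02 ± 0.19, adjusted p = 0.0100). None of these 3 overlapped between the groups, which the rule for naming large falls required of Sorbs2. Titin (Ttn) had a log2FC of -0.27 that was not called (adjusted p = 0.095). Sorbs2 kept its call with each of the 8 libraries left out in turn. Cmya5 and Pde4dip lost their call without WT ASO Control 3 or Dnm2SL/+ ASO1 2 or 4 (adjusted p up to 0.066 and 0.054 respectively).

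**Figure D3:**
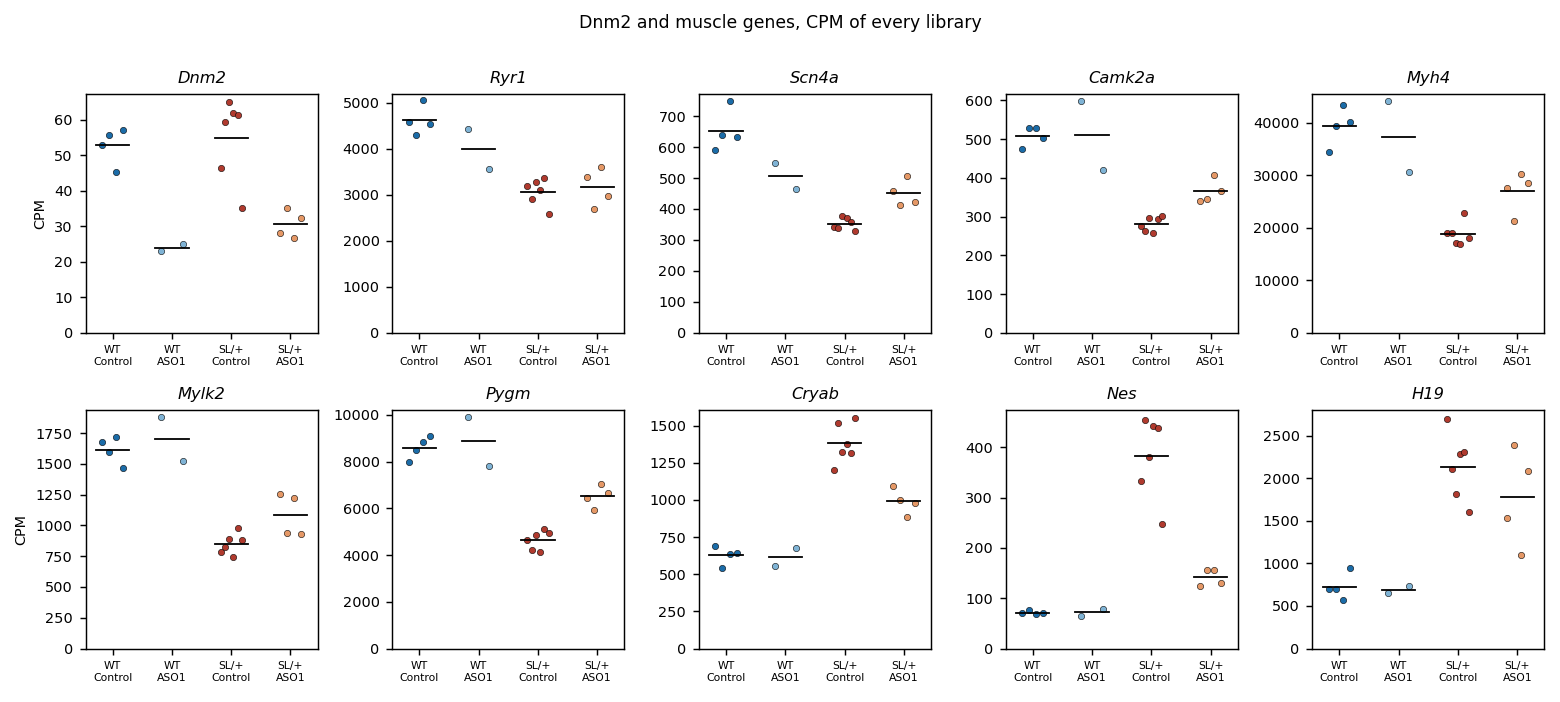
CPM on a linear axis from 0 for Dnm2 and 9 muscle genes, 1 point per library and the group mean as a bar, with groups from left to right WT ASO Control (n = 4), WT ASO1 (n = 2), Dnm2SL/+ ASO Control (n = 6) and Dnm2SL/+ ASO1 (n = 4). Dnm2, Ryr1, Scn4a, Camk2a, Myh4, Mylk2 and Pygm lie lower in Dnm2SL/+ ASO1 than in WT ASO Control, and Cryab, Nes and H19 higher, with no overlap in any of the 10.

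Of 28 genes of glycolysis and glycogen, 4 were called lower and none higher (14.3%, against 4.52% of all genes tested). At an unadjusted p under 0.05 there were 10 (8 of them lower, against 21.7% in either direction over all genes tested). A negative log2FC was found in 18, with a median log2FC of -0.08. Pygm, muscle glycogen phosphorylase, stood at 7963, 8496, 8841 and 9089 CPM in WT ASO Control and 6445, 5930.4, 7049 and 6641 CPM in treated mutants (log2FC -0.40 ± 0.09, adjusted p = 0.026). Phka1, a subunit of the kinase that activates it, had 1038, 961, 1350.3 and 1239 CPM and 741, 530.4, 891 and 685 CPM (log2FC -0.69 ± 0.15, adjusted p = 0.020). Gyg, the glycogenin that primes glycogen, had a log2FC of -0.29 ± 0.06, adjusted p = 0.020, and Pgm1, phosphoglucomutase, -0.37 (adjusted p = 0.036). Gaa, the lysosomal enzyme that degrades glycogen, was lower too (log2FC -0.44 ± 0.09, adjusted p = 0.016). Pygm, Phka1 and Gyg lost their call without WT ASO Control 3 or 4 or Dnm2SL/+ ASO1 2 or 4 (adjusted p up to 0.086, 0.069 and 0.068 respectively). Gaa lost its call without WT ASO Control 3 or Dnm2SL/+ ASO1 2 (adjusted p up to 0.056). Slc2a3, a glucose transporter, stood at 6.27 to 8.74 CPM in WT ASO Control and 2.57 to 4.05 CPM in treated mutants (log2FC -1.18 ± 0.21, adjusted p = 0.0090), and kept its call with each library left out.

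Mitochondrial genes showed no call. Of 36 nuclear genes of complex I and 41 of complexes II to V none was called by edgeR, with 33 and 39 positive and medians of 0.15 and 0.16. At an unadjusted p under 0.05 there were 12 and 14, against 21.7% of all genes tested, and DESeq2 called 1 and 3 of them, all higher. The 7 tested genes of the mitochondrial chromosome all had a negative log2FC, with a median of -0.14, none called by edgeR or DESeq2 and 2 with an unadjusted p under 0.05. Counts of that chromosome took 12.1% ± 0.94 (SD, n = 4) of the library in treated mutants and 12.6% ± 0.68 (SD, n = 4) in WT ASO Control (exact two-sided permutation p = 0.486). The 32 genes of fatty acid oxidation had no call by edgeR or DESeq2, 7 with an unadjusted p under 0.05 and a median of 0.18.

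Protein turnover genes were called only downward among those tested by edgeR. In the list of 18 atrophy and ubiquitin genes 3 were lower (16.7%, against 4.52% of all genes tested). Cul3, the scaffold of a ubiquitin ligase, stood at 344, 386, 406 and 406 CPM in WT ASO Control and 293, 274, 316 and 259 CPM in treated mutants (log2FC -0.43 ± 0.07, adjusted p = 0.0076). Fbxo32, the atrogin-1 ligase, had 345, 426, 704 and 472 CPM and 252, 326, 283 and 313 CPM (log2FC -0.73 ± 0.18, adjusted p = 0.032), with WT ASO Control 3 the highest. Fbxo40, a muscle-restricted ligase component, had a log2FC of -0.40 ± 0.09, adjusted p = 0.024. Among 20 autophagy and lysosome genes 3 were called lower (15%). These were Gaa, Ulk1 (log2FC -0.33 ± 0.08, adjusted p = 0.035), the kinase that starts autophagy, and Sqstm1 (log2FC -0.35 ± 0.09, adjusted p = 0.036), the p62 cargo receptor. In Sqstm1 the groups overlapped. Cul3 kept its call with each of the 8 libraries left out in turn. Fbxo32 lost its call without WT ASO Control 3 or 4 or Dnm2SL/+ ASO1 1, 2, 3 or 4 (adjusted p up to 0.088). Fbxo40 lost its call without WT ASO Control 3 or 4 or Dnm2SL/+ ASO1 2 or 4 (adjusted p up to 0.087). Ulk1 lost its call without WT ASO Control 3 or 4 or Dnm2SL/+ ASO1 1, 2 or 4 (adjusted p up to 0.11). Sqstm1 lost its call without WT ASO Control 1, 3 or 4 or Dnm2SL/+ ASO1 1, 2 or 4 (adjusted p up to 0.12). None of 26 proteasome genes was called by edgeR and 1 by DESeq2, with 4 at an unadjusted p under 0.05.

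Large falls were also found in genes listed with other cell types or with oligonucleotide handling. Car3, a carbonic anhydrase of slow fibres and adipocytes, stood at 3829, 2769, 2348 and 2034 CPM in WT ASO Control and 1081, 686, 919 and 1212 CPM in treated mutants, or 35.5% of the WT mean (log2FC -1.49 ± 0.23, adjusted p = 0.0047). The treated range overlapped the 806 to 1389 CPM (median 1173) of untreated mutants. It did not overlap that of WT, as the rule for naming large falls required. Car3 was the single call among 13 adipocyte markers (7.69%, against 4.52% of all genes tested), whose median was -0.09. The adipocyte list summed to 4086 to 5776 CPM in WT ASO Control and 2331 to 2992 CPM in treated mutants, with Car3 included. The means of the sum were 4730 and 2820 CPM and those of Car3 2745 and 975 CPM. The fall of the sum was thus about that of Car3, and the other markers were not summed apart. Stab2, a scavenger receptor of sinusoidal endothelium that takes up oligonucleotides, stood at 14.0, 15.5, 19.1 and 20.5 CPM in WT ASO Control and 8.22, 3.00, 6.93 and 6.02 CPM in treated mutants (log2FC -1.52 ± 0.21, adjusted p = 0.0046). Untreated mutants ranged from 5.05 to 6.40 CPM (median 5.26), and the WT ASO1 libraries stood at 17.0 and 15.9 CPM, with the WT libraries on either oligonucleotide. It was the single call among 20 genes that sense or handle oligonucleotides (5%, near the share of all genes tested). Its exons are overlapped on the other strand by Gm16268. Car3 and Stab2 kept their call with each of the 8 libraries left out in turn.

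Further large falls lay in signalling and transport genes. Slc15a5, a member of the peptide transporter family, stood at 8.26, 11.7, 14.8 and 17.4 CPM in WT ASO Control and 4.01, 2.61, 4.94 and 3.11 CPM in treated mutants (log2FC -1.83 ± 0.41, adjusted p = 0.023). Hipk2, a nuclear protein kinase, had 21.0, 11.4, 16.3 and 22.4 CPM and 6.51, 4.29, 9.88 and 5.93 CPM (log2FC -1.42 ± 0.27, adjusted p = 0.0100). Tiam1, an activator of the GTPase Rac, had 6.79, 9.96, 6.82 and 8.55 CPM and 1.74, 2.38, 3.60 and 4.66 CPM (log2FC -1.37 ± 0.33, adjusted p = 0.028). Treated libraries were below every WT library in all 3, as the rule for naming large falls required. Xylt1, which starts glycosaminoglycan chains on proteoglycans, had 6.64 to 9.65 and 2.01 to 4.81 CPM (log2FC -1.22 ± 0.22, adjusted p = 0.0098). Cebpd, a transcription factor induced by glucocorticoids and cytokines, had 26.5 to 47.9 and 15.6 to 24.9 CPM (log2FC -1.12 ± 0.26, adjusted p = 0.026), with Dnm2SL/+ ASO1 2 close to the lowest WT library. Tmem100, a membrane protein of endothelium, had 10.4 to 20.3 and 3.30 to 7.75 CPM (log2FC -1.37 ± 0.24, adjusted p = 0.0088), and Tmem178b 3.48 to 5.47 and 1.84 to 2.49 CPM (log2FC -1.07 ± 0.21, adjusted p = 0.013). Hipk2, Xylt1 and Tmem100 kept their call with each of the 8 libraries left out in turn. Slc15a5 lost its call without WT ASO Control 3 or 4 or Dnm2SL/+ ASO1 2 or 4 (adjusted p up to 0.080). Tiam1 lost its call without WT ASO Control 2, 3 or 4 or Dnm2SL/+ ASO1 1 or 2 (adjusted p up to 0.087). Cebpd lost its call without WT ASO Control 3 or 4 or Dnm2SL/+ ASO1 1 or 4 (adjusted p up to 0.091). Tmem178b lost its call without Dnm2SL/+ ASO1 4 (adjusted p up to 0.055).

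Satellite cell genes formed the list with the highest share of calls by edgeR. Of 15 tested, 4 were lower and none higher (26.7%, against 4.52% of all genes), with a median of -0.45. By log2FC 11 were negative and 4 positive, up to 0.62. The rank depended on the threshold. At an unadjusted p under 0.05 there were 7 of 15 here and 11 of 15 slow fibre genes. DESeq2 called 6 of 15 lower here, and 6 lower and 1 higher of 13 polyamine genes. Calcr, the calcitonin receptor of quiescent satellite cells, was rare in every library, at 0.705, 0.684, 1.72 and 0.954 CPM in WT ASO Control and 0, 0.0330, 0.196 and 0.190 CPM in treated mutants (log2FC -3.22 ± 0.63, adjusted p = 0.013). Myf5, a myogenic transcription factor of these cells, stood at 2.31, 1.06, 2.07 and 1.54 CPM and 0.559, 0.231, 0.687 and 0.507 CPM (log2FC -1.80 ± 0.33, adjusted p = 0.0099). Chodl, a membrane lectin, stood at 17.5, 10.9, 16.4 and 12.2 CPM and 8.45, 2.80, 5.92 and 3.99 CPM (log2FC -1.43 ± 0.30, adjusted p = 0.018). Untreated mutants ranged from 8.70 to 18.9 CPM (median 13.2) for Chodl, so that treated mutants lay below both groups that had received ASO Control, while the log2FC of untreated mutants against WT was -0.11 (adjusted p = 0.79). For Calcr and Myf5 that difference was -4.42 and -1.55. Fgfr4, a growth factor receptor of myogenic cells, had a log2FC of -1.50 (adjusted p = 0.024). Pax7, the defining transcription factor of the lineage, had -1.30 and was not called (adjusted p = 0.077). The summed list was 143 to 172 CPM in WT ASO Control and 109 to 132 CPM in treated mutants. Calcr and Myf5 kept their call with each of the 8 libraries left out in turn. Chodl lost its call without WT ASO Control 3 or Dnm2SL/+ ASO1 2 or 4 (adjusted p up to 0.069).

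Calls among immune and vascular markers were set beside the 4.52% called over all genes tested. Of 23 macrophage markers 2 were higher (8.7%, against 1.66% of all genes tested). All 23 had a positive log2FC, with a median of 0.63. Trem2, a lipid-sensing receptor of macrophages, stood at 0.192, 0.218, 0.138 and 0.257 CPM in WT ASO Control and 0.724, 0.429, 0.425 and 1.14 CPM in treated mutants (log2FC 1.74 ± 0.36, adjusted p = 0.016). Aif1, the macrophage marker Iba1, stood at 0.288, 0.0622, 0.138 and 0.0734 CPM and 0.428, 0.396, 0.327 and 0.602 CPM (log2FC 1.61 ± 0.42, adjusted p = 0.041). Both were rare transcripts in these libraries, and more abundant markers such as Cd68 (0.74, adjusted p = 0.28) and Ctsb (0.18, adjusted p = 0.12) were not called. The list summed to 423 to 477 CPM in WT ASO Control and 450 to 575 CPM in treated mutants, which overlapped. Cldn5, the tight junction protein of endothelium, stood at 23.2, 14.2, 13.8 and 8.66 CPM and 21.2, 76.3, 34.4 and 74.3 CPM (log2FC 1.78 ± 0.41, adjusted p = 0.026), and Dnm2SL/+ ASO1 1 lay inside the WT range. It was the single call of 16 endothelial markers (6.25%). Trem2 lost its call without WT ASO Control 3 or Dnm2SL/+ ASO1 4 (adjusted p up to 0.058). Aif1 lost its call without WT ASO Control 2, 3 or 4 or Dnm2SL/+ ASO1 1, 2 or 4 (adjusted p up to 0.13). Cldn5 lost its call without WT ASO Control 2, 3 or 4 or Dnm2SL/+ ASO1 2 or 4 (adjusted p up to 0.087). Of the fibro-adipogenic progenitor markers, Cd34 was higher (log2FC 0.59 ± 0.16, adjusted p = 0.047) and the chemokine Cxcl14 lower (log2FC -0.87 ± 0.20, adjusted p = 0.026), of 15 tested (13.3% called). Abcc9, a potassium channel subunit of pericytes and fibres, was lower (log2FC -0.39 ± 0.09, adjusted p = 0.022). It was the single call of 13 pericyte and smooth muscle markers (7.69%). Cd34 lost its call without WT ASO Control 2, 3 or 4 or Dnm2SL/+ ASO1 2 or 4 (adjusted p up to 0.15). Cxcl14 lost its call without WT ASO Control 3 or 4 or Dnm2SL/+ ASO1 1 or 2 (adjusted p up to 0.075). Abcc9 lost its call without WT ASO Control 3 or 4 or Dnm2SL/+ ASO1 2 or 4 (adjusted p up to 0.084). No lymphocyte, neutrophil, Schwann cell or erythroid marker was called by edgeR or DESeq2, and 0 of these 26 had an unadjusted p under 0.05.

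Polyamine genes gave 2 calls of 13 (15.4%, against 4.52% of all genes tested). The lists of growth factor signals, the clock and sterol synthesis gave 1 call each (4.76%, 5.56% and 5.56%). Sms, spermine synthase, stood at 77.9, 78.2, 84.4 and 83.8 CPM in WT ASO Control and 45.3, 39.1, 64.3 and 48.4 CPM in treated mutants (log2FC -0.72 ± 0.14, adjusted p = 0.012). Oaz2, an antizyme that restrains polyamine synthesis, was higher (log2FC 0.24 ± 0.06, adjusted p = 0.042). Other enzymes of the pathway had lower fitted values that missed the threshold, among them Amd1 (-1.24, adjusted p = 0.068), Smox (-1.08, adjusted p = 0.073) and Odc1 (-0.69, adjusted p = 0.077), and DESeq2 called 6 of 13 lower. Smad3, the effector of myostatin and activin signals, was lower (log2FC -0.55 ± 0.15, adjusted p = 0.047), Rora, a nuclear receptor of the clock, was lower (log2FC -0.57 ± 0.15, adjusted p = 0.043), and Mvd, an enzyme of sterol synthesis, was higher (log2FC 0.62 ± 0.15, adjusted p = 0.027). Sms kept its call with each of the 8 libraries left out in turn. Oaz2 lost its call without WT ASO Control 1, 3 or 4 or Dnm2SL/+ ASO1 2 or 4 (adjusted p up to 0.13). Smad3 lost its call without WT ASO Control 1, 2, 3 or 4 or Dnm2SL/+ ASO1 1, 2 or 4 (adjusted p up to 0.11). Rora lost its call without WT ASO Control 3 or 4 or Dnm2SL/+ ASO1 2 or 4 (adjusted p up to 0.14). Mvd lost its call without WT ASO Control 2, 3 or 4 or Dnm2SL/+ ASO1 1, 2 or 4 (adjusted p up to 0.083).

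In 18 of the 47 lists no gene was called by edgeR. They held 347 genes tested, of which 72 had an unadjusted p under 0.05, and DESeq2 made 14 calls among them and limma voom 1. In these lists, 24 of 25 interferon and class I genes had a positive log2FC, with a median of 0.44, and the list summed to 323 to 365 CPM in WT ASO Control and 389 to 512 CPM in treated mutants; DESeq2 called none of them either, and 1 had an unadjusted p under 0.05. Proliferation genes (18 tested) had a median of 0.44 and endplate and denervation genes (21 tested) 0.31, with 1 and 3 members called higher by DESeq2. The 29 cytosolic ribosome genes had a median of 0.034. Immediate early genes (23 tested) spread from -2.30 to 1.66.

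**Figure D4:**
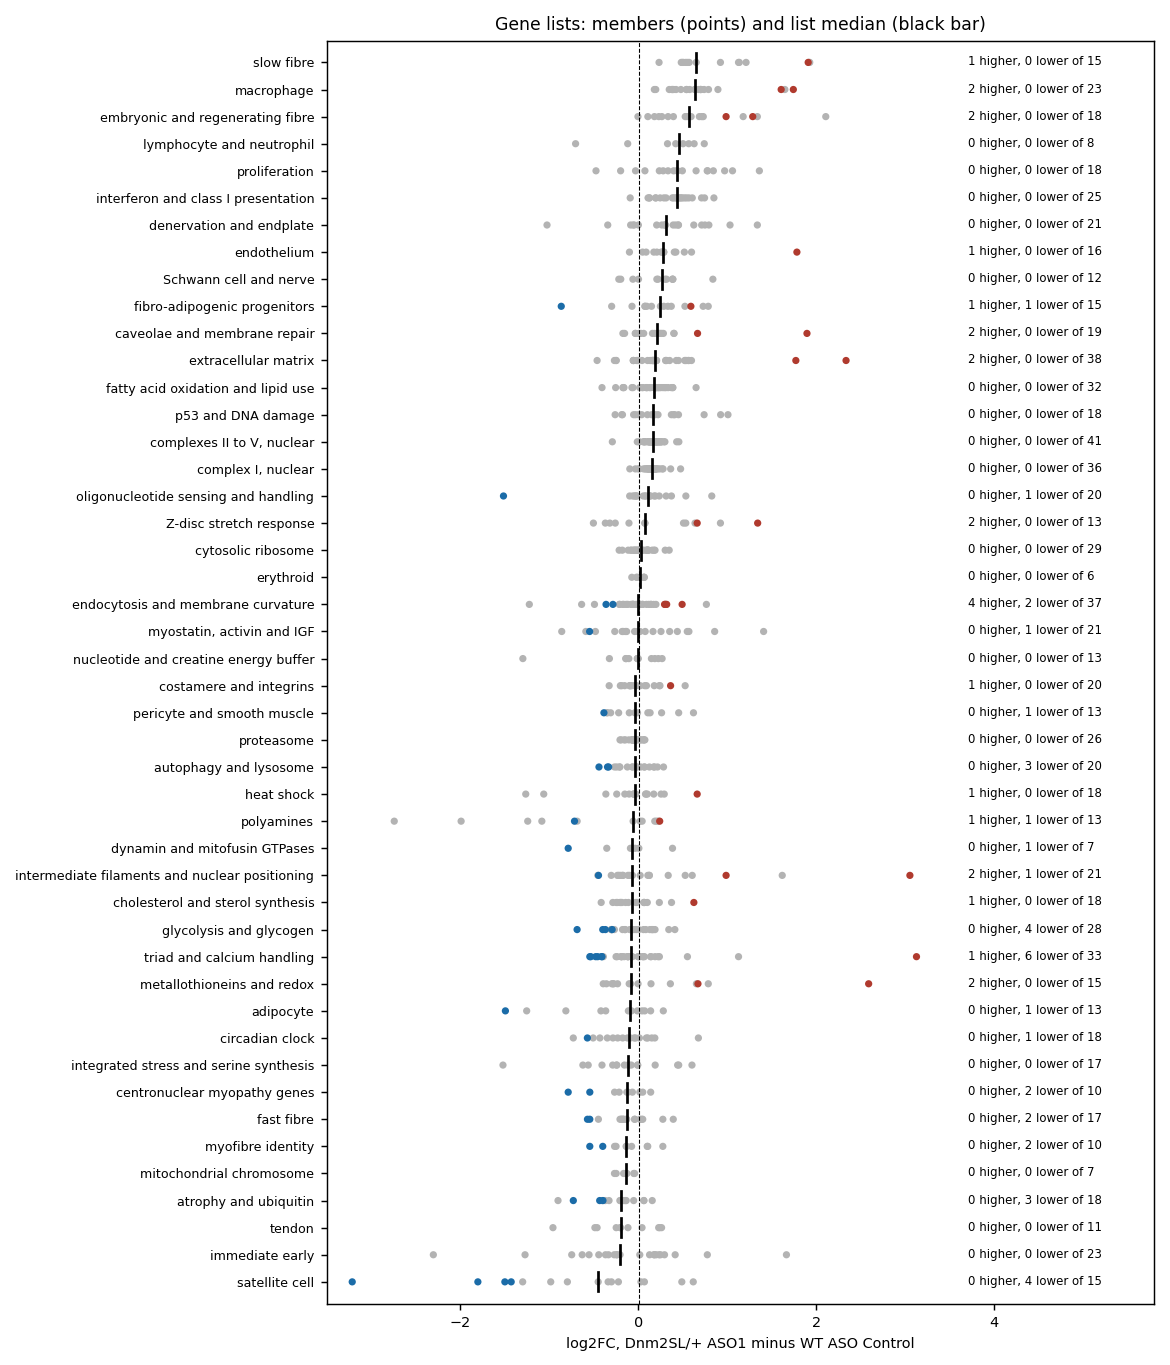
log2FC of Dnm2SL/+ ASO1 against WT ASO Control for the tested members of 46 gene lists, 1 point per gene, in red where called higher, in blue where called lower and in grey where not called, with the list median as a black bar and the median of all genes tested as a dashed line. The number of members called stands at the right; slow fibre, macrophage and embryonic lists have the highest medians and satellite cell genes the lowest. Markers of other organs, read in 1 WT library, are left out.

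Genes called lower were long. Their median summed exon length was 6976 bases, against 3420.5 bases for genes called higher and 4116 bases for all genes tested. Genes were split into 5 equal classes by exon length. In the class with the longest exons 217 were called lower and 38 higher, and in the shortest class 25 were lower and 64 higher. Within each library, a slope on log2 exon length was fitted to the deviations of log2 CPM from each gene's mean over all 16 libraries. Genes with a mean log2 CPM of 1 or more were used. The sign of this slope is thus relative to the other libraries. The slope was 0.0227 to 0.0758 in the 4 WT ASO Control libraries and -0.0233 to 0.0156 in the 4 treated libraries (exact two-sided permutation p = 0.0286, the smallest possible). In untreated mutants it was -0.055 to 0.0138 and in the WT ASO1 libraries -0.0415 and -0.0219, so that WT ASO Control stood above the 3 other groups. With a smoothed trend of such deviations on length removed from each library, 525 genes were called, 241 higher and 284 lower. Of these, 483 were among the 707. Of the 69 genes chosen for naming, Itsn1, Synm, Ulk1, Rora, Smad3, Oaz2, Aif1 and Timp1 were no longer called under that correction, while Ryr1 (log2FC -0.39) and Scn4a (-0.48) were.

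**Figure D5:**
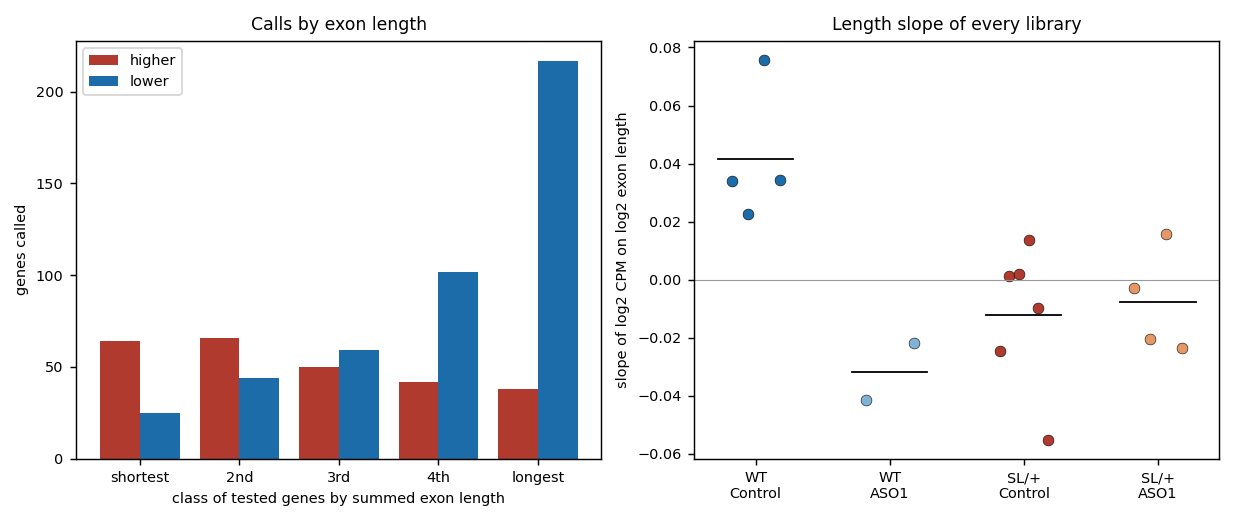
Left, genes called higher (red) and lower (blue) in Dnm2SL/+ ASO1 against WT ASO Control in each of 5 equal classes of tested genes by summed exon length; calls of lower genes go from 25 in the shortest to 217 in the longest class. Right, the slope of log2 CPM on log2 exon length in every library with the group mean as a bar, where the 4 WT ASO Control libraries lie above the other 12.

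The same treated libraries were also set beside the 2 WT ASO1 libraries, which share their oligonucleotide. The log2FC in that comparison was 3.47 (adjusted p = 0.044) for Sln, 3.46 (adjusted p = 0.016) for Cilp, 0.98 (adjusted p = 0.021) for Nes and 0.69 (adjusted p = 0.016) for Cryab. It was -2.09 (adjusted p = 0.0064) for Car3, -1.44 (adjusted p = 0.014) for Stab2 and -1.62 (adjusted p = 0.035) for Myf5. Of the muscle genes lower than in WT ASO Control, it was -0.48 (adjusted p = 0.033) for Camk2a, -0.65 (adjusted p = 0.023) for Mylk2, -0.94 (adjusted p = 0.034) for Sorbs2 and -0.44 (adjusted p = 0.042) for Pygm, which were called there. It was -0.34 (adjusted p = 0.14) for Ryr1, -0.17 (adjusted p = 0.39) for Scn4a, -0.47 (adjusted p = 0.12) for Myh4, -0.29 (adjusted p = 0.16) for Cmya5, -0.51 (adjusted p = 0.096) for Pde4dip and -0.65 (adjusted p = 0.056) for Phka1, which were not called by edgeR there. Dnm2 had a log2FC of 0.35 (adjusted p = 0.34) and was not called. With 2 libraries in 1 group these values are less precise than those above, and whether they differ from the comparison with WT ASO Control was not tested.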

How the data were processed

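The authors made poly(A) RNA libraries with a stranded kit (TruSeq Stranded mRNA) and deposited 1 table of raw counts per gene for 16 libraries. The submitters' processing notes name cutadapt 1.10, Bowtie2 2.2.8, STAR 2.5.3a, HTSeq 0.6.1p1 and GRCm38; the strand setting of the counting is not given in the sources used here. GENCODE M21 gave symbols for all 30037 gene IDs, and their exon lengths and overlaps. Genes kept by filterByExpr (15649, 52.1%) were scaled by TMM and tested by the quasi-likelihood method of edgeR 4.0.16 (R 4.3.3) in 1 fit over the 4 groups, with 12 residual degrees of freedom. A gene was called where its p, adjusted by Benjamini-Hochberg over all genes tested, was under 0.05. Values after ± beside a log2FC are standard errors. CPM (counts per 1000000 of the scaled library size) are given after TMM.

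The 47 lists held 887 genes, of which 853 were tested. The libraries, lists and tests were chosen with earlier results of these data known. Genes named were Dnm2; the 12 largest rises and the 12 largest falls among those called, if the 4 and 4 libraries did not overlap, log2 CPM averaged 1 or more and the symbol was not provisional; the 6 most counted called genes in each direction; and in each list the 3 called members with the smallest p. This gave 69 genes, not all of which are reported here; 2 share exons with another gene on the same strand and 19 on the other. Other genes are named from the lists, without regard to this rule, to show members that were or were not called. On simulated counts with known changes (15352 genes), edgeR recovered 65.7% of changes of 1.5-fold, 85.1% of 2-fold and 97% of 4-fold, with 4.07% false among genes called. The changes were placed only in genes whose log2 CPM averaged 1 or more. Counts were drawn independently for each gene, without a length effect. The recovery rates thus do not cover rarer genes such as Calcr and Aif1, and the false rate does not cover effects shared by genes. The other settings tried were upper-quartile or RLE scaling, testing without a filter or with one of over 1 CPM in at least 4 libraries, limma voom with quality weights (limma 3.58.1), DESeq2 1.42.0, a fit of the 8 libraries alone, a block for replicate number, omission of each library, a minimum absolute log2FC of 1, and scaling without the 20 genes that took most counts. Removal of the length trend was added after the data were seen. Promoters came from RefSeq (GRCm38.p6).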

Additional observations from a re-analysis of the deposited data

Results flagged for a closer look

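In 8 of 170 groups of 4 libraries looked at, 1 library lay far from the other 3, and chance alone gives about 1 in 20 such groups. In WT ASO Control, Itsn1 was low in replicate 1 (105 CPM against 122 to 125) and Krt18 was high in replicate 2 (0.560 CPM against 0.110 to 0.138). The markers of other organs summed to 269 CPM in WT ASO Control replicate 2 and to 14.6 to 18.9 CPM in the other 3, most of it albumin. In Dnm2SL/+ ASO1, Ahnak2 was high in replicate 3 (23.8 CPM against 10.8 to 12.8), Cebpd in replicate 2 (24.9 CPM against 15.6 to 17.1) and Ehd2 in replicate 4 (160.5 CPM against 117 to 125). The summed adipocyte markers were low in Dnm2SL/+ ASO1 replicate 2 (2331 CPM against 2970 to 2992) and the summed satellite cell markers in replicate 1 (109 CPM against 131 to 132). The causes of these single values were not tested.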

How the results depend on the processing

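Of the 69 genes named by rule, 24 kept their call in each of the 18 other settings with no minimum fold, and none changed direction in these; at an absolute log2FC above 1, 37 no longer counted. The numbers of genes called, higher and lower were 707, 260 and 447. They moved by over 1.5 times to 1253, 524 and 729 in DESeq2, to 215, 85 and 130 with only the 8 libraries compared, and to 120, 87 and 33 at an absolute log2FC above 1, where Dnm2 (-0.79) no longer counted. The genes lower were 267 with no filter and 284 with the length trend removed. With each library left out in turn the ranges were 189 to 975 genes called, 78 to 375 higher and 106 to 600 lower, and Dnm2 had a log2FC between -0.86 and -0.73. RLE scaling (678), upper-quartile scaling (640), limma voom (725), the filter of more than 1 CPM (803) and removal of the 20 most counted genes (697) stayed within 1.5 times. In the fit with only the 8 libraries, 36 of the 69 genes were lost, and 37, 33, 32 and 35 were lost without WT ASO Control 3, WT ASO Control 4, Dnm2SL/+ ASO1 2 and Dnm2SL/+ ASO1 4. The causes of these losses were not tested.

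With the replicate block, 446 genes were called, 158 higher and 288 lower, and Dnm2 had a log2FC of -0.79. Deviations of same-numbered libraries from their group means correlated at -0.055, 0.44, 0.13 and -0.016, and those of differently numbered libraries at -0.31 to 0.28. These values were not tested, so a pairing by label number was neither shown nor excluded. The lowest depth was 30148163 counts, and rare transcripts such as Calcr and Aif1 have a wide counting error.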
